A study of Mus musculus with 8 samples.

Results

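Proteins secreted into saliva by acinar and demilune cells were followed at the RNA level in the submandibular glands of male Dp16 and WT mice. The group was 9 genes taken by name out of 54838 genes counted: Mucl2, Pip, 2310057J18Rik, Bpifa2, Dcpp1, Dcpp2, Dcpp3, Amy1 and Smr2. Dp16 mice (B6.129S7-Dp(16Lipi-Zbtb21)1Yey/J, called transgenic in the labels) carry a duplication of the stretch of mouse chromosome 16 between Lipi and Zbtb21 and are a model of Down syndrome. WT mice were C57BL/6J without the duplication, and each genotype had 4 libraries. Both came from the same supplier, and in both the glands were cleared of connective and fat tissue before RNA was isolated. The age of the animals is not given in the sources used here, and nothing in the labels says that each library came from a separate animal, so p-values measure the spread between these libraries. None of the 9 genes lies on chromosome 16. The series title names disturbed calcium and reduced salivation in Down syndrome as the subject of the study.

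Salivary acinar cells make large amounts of a few secretory proteins, store them in granules and release them when nerves stimulate the gland, while demilune cells are serous cells that cap mucous acini. The major salivary glands of the mouse differ in their products, so that amylase and parotid secretory protein are best known from the parotid gland, the demilune proteins from the sublingual and parotid glands, and mucin-like proteins from the submandibular gland. The submandibular and sublingual glands of the mouse lie against each other in a shared capsule.

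Each library held between 90790542 and 115729892 reads in genes. Of the named genes, 9 of 9 passed the expression filter, which kept 19358 genes in all. Rows that name no gene took 60.8% to 65.3% of all reads in Dp16 and 58.1% to 65.4% in WT libraries. Reads that overlapped no counted feature took 18.4% to 20.8% in Dp16 and 13.8% to 15.9% in WT, with no overlap between the genotypes. Levels are TMM-scaled CPM, which set a gene's reads against a scaled total of gene reads, and shares are percent of gene reads. The TMM factors were 1.00 to 1.19 in Dp16 and 0.872 to 1.00 in WT, a mean difference of 0.168 on the log2 scale, so that a gene's CPM ratio of Dp16 over WT is lower by about that amount than the ratio of its shares. The lymphocyte markers summed to 488 to 651 CPM in Dp16 and 256 to 353 CPM in WT, also without overlap. The part of these differences in the values below was not tested. Markers of the granular convoluted tubule, the duct cell type that marks the male submandibular gland, summed to 71350 to 145300 CPM in Dp16 and 119600 to 202600 CPM in WT.

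The label of abundant products held for 3 of the 9 genes. By mean share over the 8 libraries, Mucl2 was rank 1 of all genes, Pip rank 7 and 2310057J18Rik rank 11. Smr2 was rank 149, Bpifa2 rank 696 and Amy1 rank 4086. The demilune genes stood lower still, Dcpp2 at rank 7900, Dcpp3 at rank 9745 and Dcpp1 at rank 10948. Together the 9 genes took 29.0% ± 2.89 of gene reads in Dp16 and 30.2% ± 3.66 in WT (SD, n = 4 each). Outside Mucl2, Pip and 2310057J18Rik, the other 6 genes summed to 0.0178% to 0.127% in Dp16 and 0.0120% to 0.0689% in WT.

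The Dcpp genes are neighbouring copies on the plus strand of chromosome 17 (Dcpp1 chr17:23880876-23882853, Dcpp2 chr17:23880880-23900788 and Dcpp3 chr17:23917458-23919441 on GRCm38), and their sequences bear on how far their counts can be told apart. Their coding sequences are 513, 513 and 510 bases long in Dcpp1, Dcpp2 and Dcpp3. Dcpp1 and Dcpp2 were 93.8% identical with 32 differences, Dcpp1 and Dcpp3 93.7% with 32 differences, and Dcpp2 and Dcpp3 95.9% with 21 differences. The start of the last coding exon is shown 5′ to 3′ for all 3 genes, from GENCODE M21 transcripts on GRCm38, plus strand. The stretch has 180 bases in Dcpp1 and Dcpp2 and 177 in Dcpp3. Capitals mark bases that differ from the base aligned to them in at least 1 of the other copies, and do not mark bases that Dcpp3 lacks.
Dcpp1, chr17:23882455-23882634: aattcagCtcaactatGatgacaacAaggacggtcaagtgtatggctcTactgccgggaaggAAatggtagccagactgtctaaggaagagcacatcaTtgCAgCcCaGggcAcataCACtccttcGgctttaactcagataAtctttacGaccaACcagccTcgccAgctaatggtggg
Dcpp2, chr17:23900390-23900569: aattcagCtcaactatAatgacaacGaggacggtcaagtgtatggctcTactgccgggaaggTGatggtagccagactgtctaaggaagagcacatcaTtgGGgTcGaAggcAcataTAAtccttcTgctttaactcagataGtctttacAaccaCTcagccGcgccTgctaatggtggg
Dcpp3, chr17:23919046-23919222: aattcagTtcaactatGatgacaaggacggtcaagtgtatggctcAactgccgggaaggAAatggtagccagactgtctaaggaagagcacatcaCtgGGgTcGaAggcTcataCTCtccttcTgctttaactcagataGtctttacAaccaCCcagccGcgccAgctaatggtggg
The copies share long runs of bases, and a read that holds none of the differing bases has more than 1 place to align. Of all stretches of 50 bases in their transcripts, 46.5% of those of Dcpp1, 44.2% of those of Dcpp2 and 45.8% of those of Dcpp3 also occurred in another Dcpp gene. At 100 bases these shares were 19.9%, 20.2% and 26.7%. Reads with several alignments were kept out of the gene rows, so the level of each Dcpp gene is uncertain and can be understated. A Dcpp2 transcript also starts within the first exon of Dcpp1, where both genes share 30 exonic bases. Outside the Dcpp genes and Amy1, no gene of the group shared more than 0.81% of its stretches of 50 bases with another gene.

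The promoters of the 5 genes that varied most between libraries, and of Mucl2 as the most abundant gene, are shown next. The part of promoter sequence in the levels was not tested. Each is the 120 bases before the RefSeq transcription start on GRCm38.p6, 5′ to 3′ on the gene's strand, with capitals marking the letters TATAAN.
Dcpp1, chr17:23880756-23880875, plus strand: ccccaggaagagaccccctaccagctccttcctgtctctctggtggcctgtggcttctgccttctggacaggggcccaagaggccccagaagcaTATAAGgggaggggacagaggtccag
Dcpp2, chr17:23898602-23898721, plus strand: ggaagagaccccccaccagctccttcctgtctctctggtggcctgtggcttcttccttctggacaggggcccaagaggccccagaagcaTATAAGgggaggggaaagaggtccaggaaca
Dcpp3, chr17:23917338-23917457, plus strand: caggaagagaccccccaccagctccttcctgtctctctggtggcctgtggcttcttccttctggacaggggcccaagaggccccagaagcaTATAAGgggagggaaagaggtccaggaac
Bpifa2, chr2:154008156-154008275, plus strand: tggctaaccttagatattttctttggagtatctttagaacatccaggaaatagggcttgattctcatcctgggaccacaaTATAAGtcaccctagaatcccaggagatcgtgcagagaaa
Smr2, chr5:88086436-88086555, plus strand: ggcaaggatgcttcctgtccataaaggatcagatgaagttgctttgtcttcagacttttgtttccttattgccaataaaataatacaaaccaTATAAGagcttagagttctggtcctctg
Mucl2, chr15:103899313-103899432, minus strand: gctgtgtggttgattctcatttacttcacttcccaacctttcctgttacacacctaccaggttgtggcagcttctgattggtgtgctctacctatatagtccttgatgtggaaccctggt
The 250 bases before the start were 95.2% identical between Dcpp1 and Dcpp2, 96.4% between Dcpp1 and Dcpp3 and 97.2% between Dcpp2 and Dcpp3. Other pairs among the 9 genes ranged from 51.2% to 60.8%. The letters TATAAN, searched on both strands as the only motif, occurred on the gene's strand within the 120 bases in 7 of the 9 genes, all but Mucl2 and 2310057J18Rik. Among all 32851 promoters of the RefSeq table, counted by entry and not by gene, 8.51% held it on the gene's strand and 11.8% on either strand. The matches in Dcpp1, Dcpp2 and Dcpp3 lie in nearly identical sequence and are not independent of each other. In Pip and Smr2 the match began 28 bases before the start, in Bpifa2 40, and in Dcpp1, Dcpp2 and Dcpp3 26, 31 and 29. In Amy1, which has 2 entries in the table, 1 of them held the letters, beginning 63 bases before the start. There a match on the other strand overlapped the first. A match of letters is a description and not evidence of a bound factor.

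Between genotypes, none of the 9 genes passed the test. Of all genes tested, 121 (91 higher and 30 lower in Dp16), or 0.625%, had an adjusted p below 0.05 in edgeR's quasi-likelihood test with Benjamini-Hochberg adjustment. Leaving out 1 library at a time gave 0 to 446 genes called, and 0 of the 9 each time. With all libraries, none of the 9 had an unadjusted p below 0.05, against 24.6% of all genes. DESeq2 called 0 of the 6 genes to which it gave an adjusted p, with none given for Dcpp1, Dcpp2 and Dcpp3, against 9.78% of all genes with one. Limma-voom called 0 of 9, against 2.05% of all genes. The CPM of Dp16 and WT libraries overlapped in all 9 genes, while 14.1% of all genes tested had groups that did not overlap. The median log2 fold change of the 9 genes was -0.24, beside 0.01 over all genes tested. It was 0.11 without WT replicate 3 and -0.10 without WT replicate 1. In a bulk sample, fewer cells of a type and less RNA per cell cannot be told apart.

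**Figure D1:**
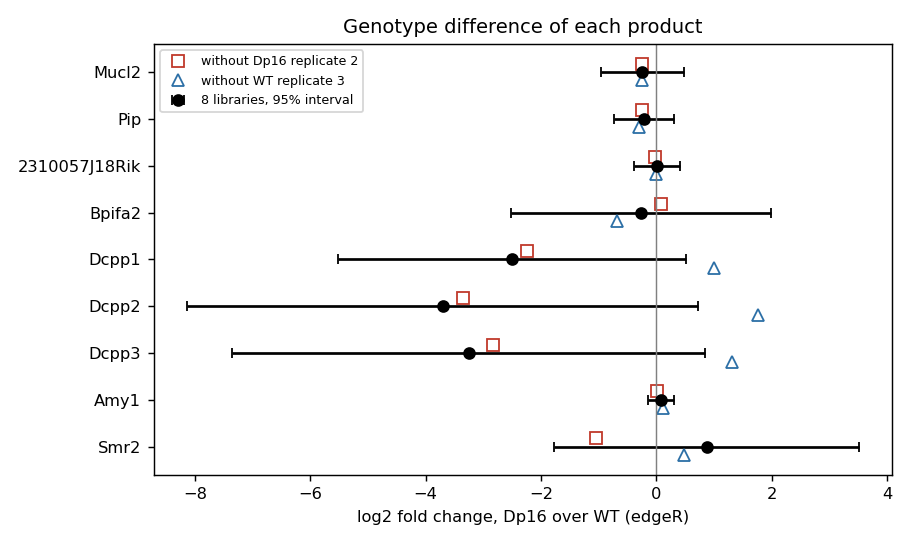
Log2 fold change of Dp16 over WT from edgeR for each gene, with its 95% interval (black, n = 4 libraries per genotype) and the value without Dp16 replicate 2 (red squares) or without WT replicate 3 (blue triangles). All 9 intervals include 0, and the values of Dcpp1, Dcpp2 and Dcpp3 change sign without WT replicate 3, that of Smr2 and Bpifa2 without Dp16 replicate 2, and that of 2310057J18Rik, near 0, without either.

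Mucl2 (GRCm38 chr15:103895855-103899312, minus strand) encodes a small secreted mucin-like protein of the gland. Its share of gene reads was 28.6%, 25.05%, 24.96% and 21.9% in Dp16 replicates 1 to 4, against 30.8%, 23.0%, 25.3% and 26.9% in WT replicates 1 to 4. The 95% binomial interval of each share (Clopper-Pearson) spanned at most 0.0732% of the share itself, so counting error was far below the difference between libraries, and such intervals cover counting error only. The highest library was WT replicate 1 and the lowest Dp16 replicate 4, and the genotypes overlapped. After scaling, Mucl2 stood at 285180, 242740, 210320 and 212840 CPM in Dp16, against 333960, 234360, 289860 and 267770 CPM in WT. Its log2 fold change was -0.24 (SE 0.318, 95% interval -0.96 to 0.47, edgeR adjusted p = 0.656). The log2 ratio of mean shares was -0.08, nearer to 0 because of the scaling factors.

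Mucl1, a tested gene of like name on the same chromosome, had 152, 159, 132 and 96.8 CPM in Dp16, against 261, 388, 304 and 161 CPM in WT. In CPM all Dp16 libraries lay below all WT libraries, while 14.1% of all genes tested had groups that did not overlap. The nearest were Dp16 replicate 2 (159 CPM) and WT replicate 4 (161 CPM). By share of gene reads the order of these libraries was reversed, so the separation depended on scaling. The log2 fold change was -1.05 (SE 0.254, edgeR adjusted p = 0.0765), which did not pass the test. Mucl1 and Mucl2 shared a single stretch of 50 bases, 0.1% of those of Mucl2.

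Pip (chr6:41847535-41852065, plus strand) encodes prolactin-induced protein, a secreted glycoprotein of saliva and tears. It took 2.18%, 2.20%, 1.64% and 2.28% of gene reads in Dp16, against 2.61%, 2.16%, 1.66% and 2.21% in WT. Replicate 3 was the lowest of both genotypes. On the scaled level Pip had 21728, 21286, 13811 and 22223 CPM in Dp16, against 28359, 22044, 19058 and 22033 CPM in WT. The log2 fold change was -0.21 (SE 0.230, 95% interval -0.73 to 0.31, edgeR adjusted p = 0.589).

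2310057J18Rik (chr10:28972288-28986303, minus strand) is listed by RefSeq under the name Leg1, which refers to a secreted protein of the liver studied in zebrafish. Its share was 1.92%, 1.82%, 1.69% and 1.57% in Dp16, against 1.69%, 1.54%, 1.39% and 1.59% in WT. The scaled level was 19176, 17596, 14235 and 15280 CPM in Dp16, against 18285, 15640, 15994 and 15863 CPM in WT. Both ends of the range were Dp16 libraries, and the WT libraries lay between them. The log2 fold change was 0.01 (SE 0.180, 95% interval -0.39 to 0.42, edgeR adjusted p = 0.977), whereas the log2 ratio of mean shares was 0.17.

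**Figure D2:**
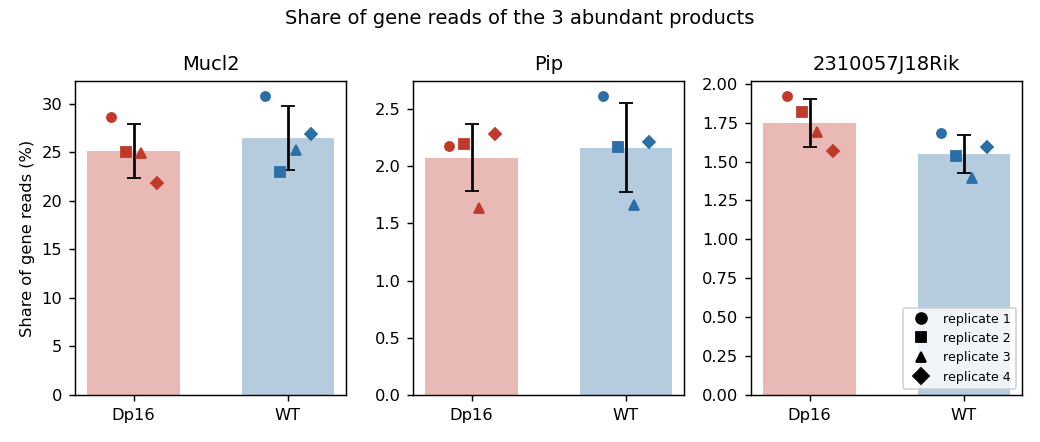
Share of gene reads (percent, from 0) of Mucl2, Pip and 2310057J18Rik in Dp16 (red, left) and WT (blue, right). Bars are means with SD of 4 libraries and points are libraries. Mucl2 averaged 25.1% in Dp16 and 26.5% in WT, Pip 2.07% and 2.16%, and 2310057J18Rik 1.75% and 1.55%, with overlapping points in each panel.

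Amy1 (chr3:113555710-113606699, minus strand) encodes the salivary alpha-amylase, which breaks down starch. It had 23.4, 28.1, 24.4 and 23.0 CPM in Dp16, against 25.3, 22.7, 25.5 and 20.2 CPM in WT. The libraries of both genotypes were mixed over this narrow range, with a log2 fold change of 0.08 (SE 0.0991, 95% interval -0.14 to 0.30, edgeR adjusted p = 0.641). The shares of gene reads, in contrast, did not overlap, being 0.00235% to 0.00290% in Dp16 and 0.00203% to 0.00233% in WT, so this separation depended on scaling. The annotated Amy1 gene shares 1128 of its 3446 exonic bases with Rnpc3, a gene for a protein of the minor spliceosome on the same strand. Rnpc3 had 20.8 to 22.9 CPM in Dp16 and 18.5 to 22.9 CPM in WT, close to the level of Amy1. How many of the reads counted for Amy1 came from amylase transcripts cannot be told from the counts. The pancreatic amylase genes Amy2a1 to Amy2a5 had 0 reads in all 8 libraries.

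**Figure D3:**
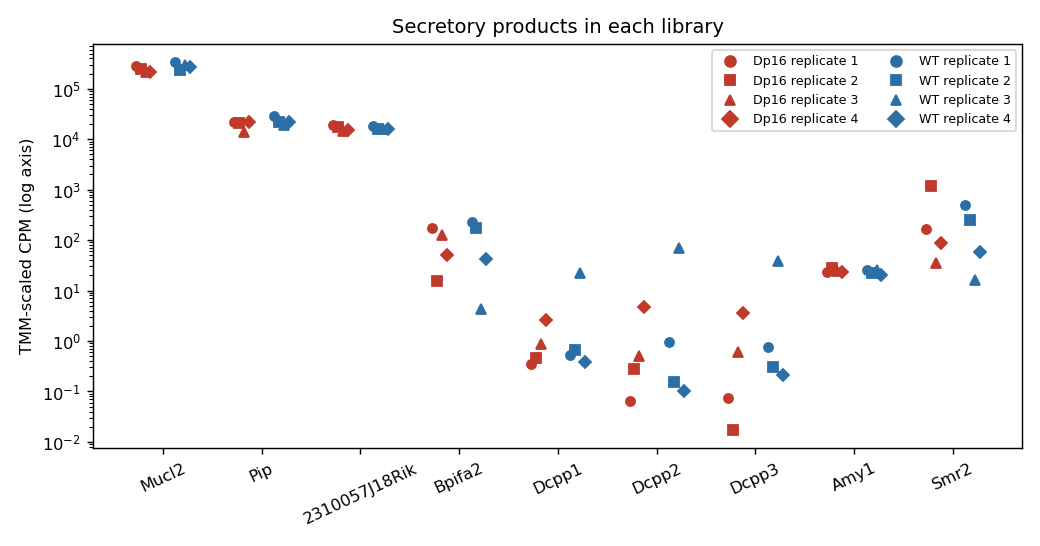
TMM-scaled CPM (log axis) of each gene in the 4 Dp16 libraries (red, left of each pair) and the 4 WT libraries (blue, right), with 1 marker shape per replicate number. Mucl2, Pip, 2310057J18Rik and Amy1 form tight groups, while Bpifa2, Smr2 and the Dcpp genes spread over 54.1-fold or more.

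Bpifa2 (chr2:154008265-154016079, plus strand) encodes parotid secretory protein, a member of the BPI fold family whose members bind bacterial lipids. It had 177, 15.3, 129 and 50.1 CPM in Dp16, against 229, 172, 4.23 and 41.7 CPM in WT. WT held both the highest and the lowest library, and the range over all 8 was 54.1-fold. Reads for Bpifa2 ran from 1769 to 19365 in Dp16 and from 427 to 22763 in WT, so the low libraries were still measured well above counting error. The log2 fold change was -0.27 (SE 1.00, 95% interval -2.53 to 1.99, edgeR adjusted p = 0.890). Left out in turn, single libraries moved it between -0.78 (without Dp16 replicate 1) and 0.34 (without WT replicate 1). Other genes of the Bpif families had at most 16 reads over all libraries, and none was tested.

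Smr2 (chr5:88086556-88109053, plus strand) encodes a submaxillary gland protein named for its regulation by androgen. It had 168, 1187, 35.8 and 89.3 CPM in Dp16, against 490, 246, 16.3 and 57.4 CPM in WT. Dp16 replicate 2 was the highest library by far and WT replicate 3 the lowest, a range of 72.7-fold. The log2 fold change was 0.87 (SE 1.17, 95% interval -1.77 to 3.51, edgeR adjusted p = 0.669), and it was -1.05 without Dp16 replicate 2 (edgeR adjusted p = 0.525). The related gene Smr3a on the same chromosome, too low to be tested, had 4, 227, 0 and 0 reads in Dp16, against 3, 4, 0 and 0 reads in WT. In both genes Dp16 replicate 2 stood highest. Krt19, a keratin of duct cells, had 12.3, 45.9, 18.2 and 14.7 CPM in Dp16, against 7.43, 13.7, 8.32 and 17.99 CPM in WT. It was again highest in Dp16 replicate 2, but lowest in WT replicate 1, where Smr2 had 490 CPM. Of other duct markers, Slc9a3 was highest in Dp16 replicate 2 (18.4 CPM) and Elf5 in WT replicate 4 (76.8 CPM). The part of duct cells in the Smr2 values was not tested. The whole list of 8 duct markers without granular tubule genes summed to 624 to 918 CPM in Dp16 and 605 to 786 CPM in WT.

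The demilune genes were low in most libraries and by far highest in WT replicate 3. Dcpp1 had 0.347, 0.459, 0.882 and 2.55 CPM in Dp16, against 0.524, 0.666, 22.3 and 0.382 CPM in WT. Dcpp2 had 0.0640, 0.277, 0.511 and 4.75 CPM in Dp16, against 0.967, 0.156, 70.8 and 0.104 CPM in WT. Dcpp3 had 0.0731, 0.0173, 0.613 and 3.58 CPM in Dp16, against 0.765, 0.312, 39.1 and 0.208 CPM in WT. WT replicate 3 was the highest library for all 3 genes and Dp16 replicate 4 the next, while the other WT and Dp16 libraries lay among each other. The range over 8 libraries was 64.1-fold for Dcpp1, 1110-fold for Dcpp2 and 2260-fold for Dcpp3. The last ratio was taken against 2 reads in Dp16 replicate 2, with a 95% counting interval of 624-fold to 18600-fold.

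The log2 fold changes of Dcpp1, Dcpp2 and Dcpp3 were -2.498 (SE 1.34), -3.70 (SE 1.97) and -3.26 (SE 1.82). The adjusted p from edgeR was 0.275, 0.272 and 0.294 in the same order. They rested on WT replicate 3. Without that library they were 1.00, 1.76 and 1.30, of the opposite sign, and edgeR gave an adjusted p of 0.401, 0.470 and 0.593. With the reads of the 3 genes summed to 1 row, which takes in uncertainty between the copies but not reads lost to more than 1 alignment, the log2 fold change was -3.28 (SE 1.73, edgeR adjusted p = 0.267).

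The proportions among the 3 copies also differed between libraries. In WT replicate 3, with 13330 reads over the 3 genes, Dcpp2 took 53.6%, Dcpp3 29.6% and Dcpp1 16.8%. In Dp16 replicate 4, with 1053 reads, they took 43.7%, 32.9% and 23.5%. In the libraries with 53 to 109 reads (Dp16 replicates 1 and 2, WT replicates 2 and 4) Dcpp1 took 60.9% to 71.7% in Dp16 and 55.0% to 58.7% in WT. The 95% intervals of Dcpp1 reached no lower than 49.9% in these Dp16 libraries and 43.5% in these WT libraries, and no higher than 17.5% in WT replicate 3. The proportion did not follow the number of reads throughout, since Dcpp1 took 44.0% of 216 reads in Dp16 replicate 3 and 23.2% of 224 reads in WT replicate 1.

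Muc19, a gel-forming mucin best known from sublingual mucous cells, was high in the same libraries as the Dcpp genes. It had 0.265, 0.416, 2.15 and 13.2 CPM in Dp16, against 4.32, 0.312, 104 and 0.338 CPM in WT. Smgc, a submandibular product of the newborn gland and of sublingual cells whose annotated span lies within that of Muc19 but for its first bases, had 4, 9, 8 and 46 reads in Dp16, against 34, 0, 519 and 2 reads in WT. WT replicate 3 and Dp16 replicate 4 were again the highest libraries. The 8 markers of sublingual and mucous cells summed to 43.7 to 57.2 CPM in Dp16 and 54.2 to 165 CPM in WT. Without Muc19 and Smgc the sum was 41.5 to 47.2 CPM in Dp16 and 49.5 to 64.3 CPM in WT. WT replicate 3 stood at 56.0 CPM, of which Creb3l1 took 30.3 and Spdef 15.2 CPM. Both were present in every library, at no less than 19.9 and 9.45 CPM, so the sum does not mark sublingual cells alone. The part of these cells in the Dcpp values was not tested.

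**Figure D4:**
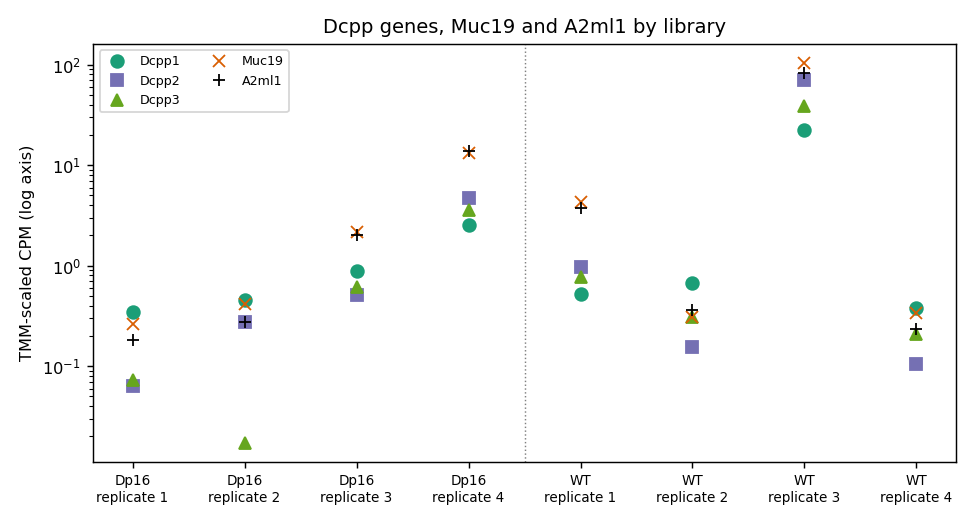
TMM-scaled CPM (log axis) of Dcpp1, Dcpp2, Dcpp3, Muc19 and A2ml1 in the 4 Dp16 libraries (left of the dotted line) and the 4 WT libraries (right). All 5 genes are highest in WT replicate 3, where they reach 22.3 to 104 CPM, and second in Dp16 replicate 4.

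For each gene the most similar profiles were sought among 11969 other protein-coding genes, as the smallest root mean square difference of centred log2 CPM over the 8 libraries. For Dcpp2 and Dcpp3 the nearest was A2ml1, an alpha-2-macroglobulin-like protease inhibitor gene, at a distance of 0.674 and 0.930. A2ml1 had 0.183, 0.277, 2.03 and 13.8 CPM in Dp16, against 3.78, 0.364, 82.6 and 0.234 CPM in WT. The next nearest, Sult1e1, an estrogen sulfotransferase gene, was at 2.22 from Dcpp2 and 1.97 from Dcpp3. Dcpp2 itself varied by 3.03 about its mean and Dcpp3 by 2.95. Muc19, which the annotation does not class as protein-coding, was at 0.588 from Dcpp2, 1.01 from Dcpp3 and 1.42 from Dcpp1. The nearest to Dcpp1 among protein-coding genes were Pglyrp1, Coro2a and Klk1b27, at 1.30 to 1.31, where Dcpp1 itself varied by 1.87.

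Phlda3, Adi1 and Irx1 were nearest to Mucl2 at 0.0829 to 0.0884, where Mucl2 itself varied by 0.218 about its mean. Gpc3, Slc2a13 and Ano1, the last a chloride channel of acinar cells, were nearest to Pip at 0.109 to 0.116. Enpp5, Zbtb24 and Ube2g1 were nearest to 2310057J18Rik at 0.0450 to 0.0635, and Dhx34, Ezh2 and Btbd2 to Amy1 at 0.0402 to 0.0585. No gene came nearer to Bpifa2 than Mup21, at 1.37, followed by Themis and Hhipl2 at 1.41 each, where Bpifa2 itself varied by 1.89. Slco1a6, Etnk1 and Mup21 were nearest to Smr2, at 1.22 to 1.43, where Smr2 itself varied by 1.90.

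The spread between libraries of one genotype differed widely among these genes. The SD of log2 CPM within genotypes was 0.209 for Mucl2, 0.287 for Pip, 0.156 for 2310057J18Rik and 0.144 for Amy1. The median over all genes tested was 0.249, and 42.3% of genes had a smaller SD than Mucl2, 56.5% than Pip, 28.7% than 2310057J18Rik and 25.2% than Amy1. Among genes with a mean of at least 100 CPM the median was lower, at 0.174, so that Mucl2 and Pip stood above it and 2310057J18Rik below it. Bpifa2 and Smr2 each had an SD of 2.17, Dcpp1 2.11, Dcpp2 3.44 and Dcpp3 3.19, larger than in at least 99.8% of genes. Of 735 genes with a mean of at least 100 CPM, 5 ranged over 10-fold or more, and Bpifa2 and Smr2 were among them.

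**Figure D5:**
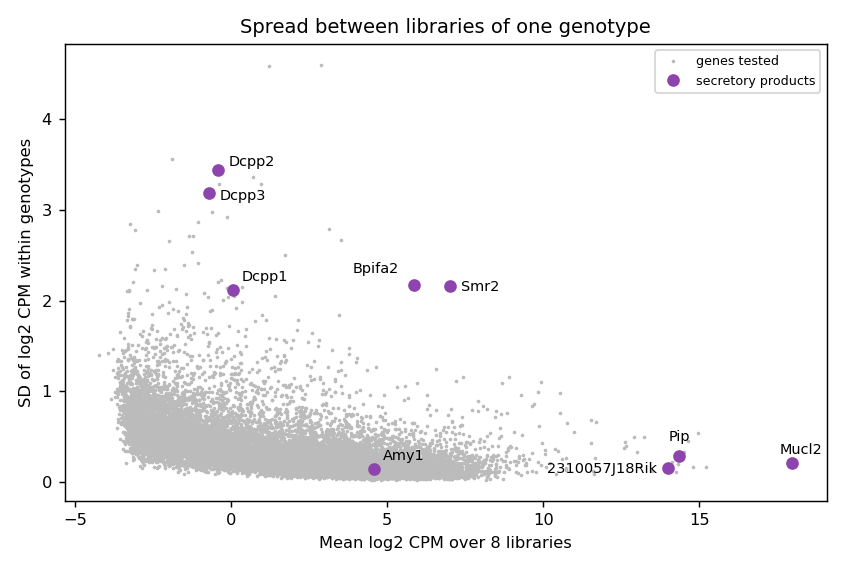
SD of log2 CPM within genotypes against mean log2 CPM over 8 libraries for all 19358 genes tested (grey) and the 9 secretory genes (purple). Mucl2, Pip, 2310057J18Rik and Amy1, at an SD of 0.144 to 0.287, lie within the SD range of the other genes tested (median 0.249). Bpifa2 and Smr2 at an SD of 2.17 and the Dcpp genes at 2.11 to 3.44 lie above at least 99.8% of genes.

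Per length, as CPM per kilobase of exons, Mucl2 stood first in 8 of 8 libraries, at 201070 to 272630 in Dp16 and 224050 to 319270 in WT. Pip and 2310057J18Rik followed and did not differ beyond their spread, at 5784 to 9306 and 7662 to 10321 in Dp16, and 7981 to 11876 and 8418 to 9841 in WT. Each of the pair was the higher one in 4 libraries. Smr2, at 26.5 to 878 in Dp16 and 12.1 to 363 in WT, overlapped Bpifa2, at 7.63 to 88.1 in Dp16 and 2.11 to 114 in WT. Amy1 had 6.67 to 8.16 in Dp16 and 5.87 to 7.39 in WT. The Dcpp genes took the last 3 places in 7 libraries. In WT replicate 3 they stood in places 4 to 6, with Dcpp2 at 96.8, Dcpp3 at 55.9 and Dcpp1 at 36.1.

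Other secreted salivary products were looked up by name. Of 17 such genes found, 8 were tested, 3 with a positive log2 fold change, and the median was -0.03. EdgeR called 0 of the 8, beside 0.625% of all genes, and so few genes cannot be told apart from that share. Prol1, a mucin-type product listed by RefSeq also as Muc10, had 5136 to 10130 CPM in Dp16 and 7598 to 10060 CPM in WT (log2 fold change -0.22, SE 0.226, edgeR adjusted p = 0.565). Car6, the secreted carbonic anhydrase, had 18850 to 27040 CPM in Dp16 and 17700 to 22500 CPM in WT, at a log2 fold change of 0.19. Dnase1 had the smallest p of the list, with a log2 fold change of 0.77 (edgeR adjusted p = 0.289). Bpifb1, Bpifb2, Lcn11 and Prpmp5 were at 0 reads in all 8 libraries. Of the parotid markers, 2 of 6 were tested and none was called. In both lists 0 genes had an unadjusted p below 0.05 in edgeR, and DESeq2 and limma-voom called 0. These rules took 24.6%, 9.78% and 2.05% of all genes.

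The genes that make and release such products were described by the same edgeR test, which called 0.625% of all genes. Of 22 secretory pathway genes tested, which fold, modify and move proteins through the endoplasmic reticulum, 0 were called, 2 had a positive log2 fold change, and the median was -0.44, beside 0.01 over all genes tested. The smallest p belonged to Creb3l1, a transcription factor of secretory cells, with 19.9 to 26.3 CPM in Dp16 and 27.8 to 38.7 CPM in WT (edgeR adjusted p = 0.0815). Of 16 granule exocytosis genes 0 were called, with 6 positive and a median of -0.07. Snap23, a membrane fusion protein of granule release, had 55.6 to 68.7 CPM in Dp16 and 70.6 to 78.6 CPM in WT (log2 fold change -0.31, edgeR adjusted p = 0.0909).

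Of 13 acinar regulators and fluid secretion genes 0 were called, 4 had a positive value, and the median was -0.23. Tesc had the smallest p, with 25.6 to 38.6 CPM in Dp16 and 49.6 to 55.8 CPM in WT (log2 fold change -0.61, SE 0.121, edgeR adjusted p = 0.058). Bhlha15, a transcription factor of serous secretory cells also known as Mist1, had 157, 110, 113 and 117 CPM in Dp16, against 217, 226, 275 and 168 CPM in WT. Its log2 fold change was -0.83 (SE 0.166, edgeR adjusted p = 0.0589). Aqp5, the acinar water channel, had 84.0, 61.05, 53.9 and 67.7 CPM in Dp16, against 115, 102, 108 and 97.0 CPM in WT (log2 fold change -0.66, SE 0.131, edgeR adjusted p = 0.0589). In Tesc, Bhlha15 and Aqp5 all Dp16 libraries lay below all WT libraries, without passing the test. Of all genes, 14.1% had groups that did not overlap. At an unadjusted p below 0.05 there were 4 genes of the secretory pathway, 4 of granule exocytosis and 6 of the acinar regulators, beside 24.6% of all genes. Of these 3 lists DESeq2 called 1, 3 and 4 genes and limma-voom 0, 0 and 1, beside 9.78% and 2.05% of all genes. The serous and demilune acinar list, which also holds Tesc, Bhlha15 and Aqp5, had 6 genes tested. EdgeR called 0 of them, 0 had a positive value, and the median was -0.42. At an unadjusted p below 0.05 in edgeR there were 3. DESeq2 called 3 and limma-voom 1, all lower in Dp16, beside the same shares of all genes.

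Markers of other cells in the gland were read from the same fit. Of 122 listed genes tested edgeR called 1, where it called 0.625% of all genes. This was Klk1, a kallikrein of the granular convoluted tubule, with a count made uncertain by its many near copies. Klk1 had 599 to 756 CPM in Dp16 and 1058 to 1178 CPM in WT (log2 fold change -0.70, SE 0.106, edgeR adjusted p = 0.0358). It was not called when Dp16 replicate 1 or 4, or any 1 of the 4 WT libraries, was left out. The tubule list had 14 genes tested, all 14 with a negative value and a median of -0.52. At an unadjusted p below 0.05 in edgeR there were 5. DESeq2 called 3 and limma-voom 1, all lower in Dp16. All 12 lymphocyte markers had a positive value, with a median of 1.93, 0 called by edgeR (12 at an unadjusted p below 0.05), 12 by DESeq2 and 3 by limma-voom, where these rules took 24.6%, 9.78% and 2.05% of all genes. The pancreas markers, which would accompany amylase from that organ, were at 0.473 CPM or less in sum in Dp16 and 0.252 CPM or less in WT.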

How the data were processed

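RNA of 8 submandibular gland libraries (4 Dp16, 4 WT) was sequenced after ribosomal depletion with a stranded total RNA kit, per the labels' protocols. The authors deposited raw read counts by Ensembl gene for each library. HTSeq, STAR, FastQC, DESeq2 and the build GRCm38 appear in the submitters' processing notes. Their versions, the annotation release and the strand setting were not stated in the sources used here, so overlapping genes are uncertain.

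Library sizes and tests used gene rows alone, without the 5 rows that name no gene (58.1% to 65.4% of reads). GENCODE M21 gave names to 54809 of 54838 genes. The fit was made with edgeR 4.0.16 (R 4.3.3): default expression filter, TMM scaling, quasi-likelihood F-test of genotype, two-sided, Benjamini-Hochberg adjustment over all 19358 genes tested, called below 0.05. SE and 95% intervals come from that fit, and the prior count for log2 CPM was 2. Coding sequences were aligned with MAFFT 7.526, and transcripts were searched for shared stretches of 50 and 100 bases. Promoters came from RefSeq (GRCm38.p6).

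Alternatives were DESeq2 1.42.0, limma-voom with quality weights (limma 3.58.1), relative log expression scaling, TMM computed without either the top 1% of genes or the 9 genes, no filter, CPM of 1 or more in 4 libraries, a threshold of 0.10, replicate number as block, other denominators of shares and each library left out in turn. A robust variance estimate, leaving out WT replicate 3 and Dp16 replicate 2 together, and the summed Dcpp row were added after seeing the data.

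The members and gene lists were chosen with earlier results of these data known. Named were all 9 genes, up to 3 genes per list by smallest p, 3 protein-coding genes nearest in profile to each of the 9 (mean log2 CPM of at least 0), and tested genes whose symbols start like a member's. Rnpc3, Smgc and Smr3a were named after their values were seen.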

Additional observations from a re-analysis of the deposited data

Results flagged for a closer look

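Libraries that stood far from the other 3 of their genotype were sought by the gap to the nearest library divided by the group's range. This ratio was set against the 95% critical value of Dixon for 4 samples. Chance passes that value in about 1 in 20 groups when values are normally distributed. The ratio was taken on CPM and shares without logs, so for genes with a wide spread that rate does not hold. Gaps on the log2 scale were not examined. Of 20 groups examined, 8 passed. WT replicate 3 was far above the other WT libraries for Dcpp1 (0.987), Dcpp2 (0.988) and Dcpp3 (0.986). Dp16 replicate 4 was far above the other Dp16 libraries for Dcpp2 (0.905) and Dcpp3 (0.833). The Dcpp genes share sequence, so these flags are not independent of each other. Dp16 replicate 2 was far above the other Dp16 libraries for Smr2 (0.885). Dp16 replicate 3 was below the others for Pip (0.889), and WT replicate 1 above the others for 2310057J18Rik (0.866), in both cases within a narrow range of levels.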

How the results depend on the processing

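The count of 0 called among the 9 genes held under every alternative run; the filter of CPM of at least 1 left 6 of them, and DESeq2 gave an adjusted p to 6. The count of genes called, 121, was 1980 by DESeq2, 396 by limma-voom, 223 without a filter and 1308 at an adjusted p below 0.10. The split of 91 higher and 30 lower was 1140 and 840 by DESeq2, 247 and 149 by limma-voom, and 360 and 416 with the replicate block. Leaving out 1 library gave 0 to 446: 0, 446, 56 and 14 for Dp16 replicates 1 to 4, and 63, 0, 4 and 11 for WT replicates 1 to 4. Without WT replicate 3 and Dp16 replicate 2 together it was 0 by edgeR, with 4537 genes at an unadjusted p below 0.05. Listed genes called, 1 of 122, became 28 of 121 by DESeq2, 6 of 122 by limma-voom, 8 of 135 without a filter and 16 of 122 at 0.10. The shares of all genes called were 0.625%, 9.78%, 2.05%, 0.672% and 6.76% in the same order. With 1 library left out, 0 to 8 listed genes were called, where 0% to 2.26% of all genes were. With the replicate block, 776 genes (4.01%) and 18 of 122 listed genes were called. Of the 22 in the secretory pathway 8 were called, all lower in Dp16. The log2 fold change with the block was 0.0706 for Bpifa2, -0.73 for Dcpp1, -1.47 for Dcpp2 and -2.63 for Dcpp3. Libraries with the same number correlated at 0.0777 to 0.191 in their deviations, 3 of 4 pairs above 0.1, and 4 of 8 libraries correlated best with their own number, so the numbers were not taken to pair them. The number of WT replicate 4 is that of its title, and another label numbers that library otherwise.

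Over single omissions the log2 fold change ran from -0.0671 to 0.0789 for 2310057J18Rik, -0.78 to 0.34 for Bpifa2, -3.41 to 1.00 for Dcpp1, -5.99 to 1.76 for Dcpp2, -5.45 to 1.30 for Dcpp3 and -1.05 to 1.80 for Smr2. Limma-voom gave 0.73 for Bpifa2, -1.06 for Dcpp1, -1.80 for Dcpp2 and -2.68 for Dcpp3. Without both libraries the values were -0.05 for 2310057J18Rik, 1.25, 2.11 and 1.72 for Dcpp1, Dcpp2 and Dcpp3, and -1.45 for Smr2. The causes were not tested. Mucl2 (-0.34 to -0.16 over single omissions), Pip (-0.30 to -0.07) and Amy1 (0.01 to 0.11) kept their sign in every alternative run. The summed share was 10.7% in Dp16 and 11.8% in WT over all rows, and 5.18% and 5.12% over genes other than Mucl2. Depth limits the Dcpp genes, with as few as 2 reads in a library.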
